A study of Mus musculus with 9 samples.

Results

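The core circadian clock genes examined here were *Arntl*, *Clock*, *Npas2*, *Per1*, *Per2*, *Per3*, *Cry1*, *Cry2*, *Nr1d1* and *Nr1d2*, chosen by gene symbol as the textbook set of the mammalian clock. The choice was made with earlier results of these data known. Of these 10 genes, 9 had a probe set carrying that symbol alone on the array, each of them 1 probe set, and *Npas2* was not analysed here. They are 9 of the 19935 genes that were named by a single symbol. Their mRNA was measured in the livers of 9 female mice on a C57BL/6J background, aged 15 to 16 months. The mice were housed individually under 12 h of light and 12 h of dark and fed a standard chow. For the restricted mice the methods name a calorie restriction diet. Wild-type mice with free access to chow formed the WTAL group, wild-type mice whose daily calories were lowered in steps formed the short-term calorie restricted (WTCR) group, and mice null for *Dgat1*, which encodes an acyltransferase that completes triglycerides, with free access to chow formed the Dgat1-/-AL group. Each group had 3 mice with 1 array per mouse, so the spread between mice and that of the measurement cannot be told apart. Neither the hour at which each liver was taken nor the hour at which the restricted mice were fed is given in the sources used here, so a change in the level of a clock gene and a shift in the timing of its daily cycle cannot be told apart.

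The clock is a feedback loop of transcription factors. BMAL1, the protein of *Arntl*, pairs with CLOCK, or with NPAS2 in its place, and switches on genes through E-box elements in DNA. Among those genes are the *Per* and *Cry* genes, whose proteins return to the nucleus and block the BMAL1-CLOCK pair, and *Nr1d1* and *Nr1d2*, which encode the nuclear receptors REV-ERBα and REV-ERBβ that repress *Arntl* through ROR elements. In liver the loop sets daily rhythms of glucose, lipid and bile acid metabolism, and the hour of feeding is a strong timing signal for it.

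The promoter sequences of 6 of the clock genes are shown because they held letter matches to the motifs named below. They come from RefSeq (mouse build GRCm38.p6), run from 250 bases before to 50 bases after an annotated transcript start, and are written 5′ to 3′ on the strand of the gene. Capitals mark matches, on either strand, to the E-box CACGTG, to its variant CACGTT, which appears reversed and complemented in the windows below, to the D-box forms TTATGCAA, TTACGTAA and TTATGTAA, and to the ROR element. The table held 13 windows for 9 of the 10 clock genes, *Npas2* included, and a window of *Per2* was not among them.
*Per1*, chr11:69098699-69098998, plus strand: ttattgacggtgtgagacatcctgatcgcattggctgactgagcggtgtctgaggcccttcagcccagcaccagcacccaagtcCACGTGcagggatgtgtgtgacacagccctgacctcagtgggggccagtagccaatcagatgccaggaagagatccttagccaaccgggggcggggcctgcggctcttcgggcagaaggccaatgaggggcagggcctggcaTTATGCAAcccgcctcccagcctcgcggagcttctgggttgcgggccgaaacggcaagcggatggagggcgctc
*Per3*, chr4:151044616-151044915, minus strand: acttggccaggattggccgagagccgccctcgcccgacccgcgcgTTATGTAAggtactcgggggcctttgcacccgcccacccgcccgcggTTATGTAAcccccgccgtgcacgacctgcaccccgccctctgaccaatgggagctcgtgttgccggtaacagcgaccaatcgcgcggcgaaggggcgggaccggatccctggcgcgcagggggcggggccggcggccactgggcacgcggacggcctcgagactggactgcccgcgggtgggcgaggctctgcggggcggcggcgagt
*Cry1*, chr10:85185005-85185304, minus strand: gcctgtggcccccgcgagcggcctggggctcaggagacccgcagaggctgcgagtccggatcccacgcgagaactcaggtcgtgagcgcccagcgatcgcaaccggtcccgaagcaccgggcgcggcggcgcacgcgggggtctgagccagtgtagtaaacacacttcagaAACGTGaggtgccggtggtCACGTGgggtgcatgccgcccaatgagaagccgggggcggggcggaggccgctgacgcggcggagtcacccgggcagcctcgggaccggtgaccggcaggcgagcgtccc
*Cry2*, chr2:92434020-92434319, minus strand: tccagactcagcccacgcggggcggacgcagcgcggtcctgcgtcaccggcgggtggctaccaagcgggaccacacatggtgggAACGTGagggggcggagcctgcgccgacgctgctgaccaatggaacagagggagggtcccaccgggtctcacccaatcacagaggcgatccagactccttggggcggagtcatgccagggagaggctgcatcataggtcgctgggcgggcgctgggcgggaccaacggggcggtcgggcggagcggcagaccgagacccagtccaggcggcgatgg
*Nr1d1*, chr11:98775328-98775627, minus strand: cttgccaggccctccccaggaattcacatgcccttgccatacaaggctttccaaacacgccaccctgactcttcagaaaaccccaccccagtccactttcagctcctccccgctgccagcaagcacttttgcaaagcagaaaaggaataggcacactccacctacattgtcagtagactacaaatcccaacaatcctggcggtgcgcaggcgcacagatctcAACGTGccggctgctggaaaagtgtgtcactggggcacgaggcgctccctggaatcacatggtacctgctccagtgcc
*Arntl*, chr7:113207261-113207560, plus strand: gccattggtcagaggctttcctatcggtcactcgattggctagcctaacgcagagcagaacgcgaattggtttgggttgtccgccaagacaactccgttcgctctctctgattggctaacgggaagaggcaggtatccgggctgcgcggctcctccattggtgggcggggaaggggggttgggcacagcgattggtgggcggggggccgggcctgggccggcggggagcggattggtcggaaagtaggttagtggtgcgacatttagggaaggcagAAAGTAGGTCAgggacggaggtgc

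The *Per1* window held an E-box at position -166 and a D-box (TTATGCAA) at -24, both counted from the transcript start. In *Cry1* an E-box lay at -60 and the E-box variant at -79. The variant alone was found in *Cry2*, at -166, and in *Nr1d1*, at -28. The *Per3* window had the D-box form TTATGTAA at -205 and at -158, and the *Arntl* window printed had a ROR element at 27 bases after the start. Among all 32851 promoter windows in the table, 7.15% held the E-box, 4.68% its variant, 0.743% TTATGCAA, 0.938% TTATGTAA and 0.384% the ROR element. Of the 13 windows of clock genes 2 held the E-box and 3 its variant. TTATGCAA, TTATGTAA and the ROR element were each in 1 of them. None of the motifs searched, among them the cAMP response element TGACGTCA (1.79% of all windows) and TTACGTAA (0.119%), was matched in the windows of *Clock*, *Nr1d2* or *Npas2*, in the second *Per1* window or in the second *Arntl* window. These matches are letters in a window of fixed length and no binding was measured.

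A few facts about the arrays touch the results. *Dgat1* log2 signal was 5.39 to 6.14 in the Dgat1-/-AL group and 8.56 to 8.90 in WTCR. In WTAL it was 7.86 and 8.04 in replicates 1 and 3, whereas the array labelled WTAL replicate 2 gave 5.67, within the range of the null mice and against its label. Dgat1-/-AL replicate 1 stood apart from the other arrays on the second principal component (26.4% of the variance). Results for the clock genes are therefore also given without these 2 arrays. All 8 hepatocyte markers were measured, and none was called in either comparison with WTAL. Their mean log2 signal was 13.02 to 13.10 in WTAL, 13.11 to 13.17 in WTCR and 13.03 to 13.13 in Dgat1-/-AL. Every WTCR array was thus slightly above every WTAL array. B cell markers, with 3 of 4 genes measured, averaged 4.07 to 4.29 in WTCR, 4.37 to 4.65 in Dgat1-/-AL and 4.70 to 5.0 in WTAL. All 3 were called lower in WTCR and none in Dgat1-/-AL. Among all probe sets 3.81% were called lower in WTCR and 0.76% in Dgat1-/-AL. Stellate cell markers averaged 7.74 to 7.86 in WTCR against 7.98 to 8.09 in WTAL, with 2 of 5 called lower. Kupffer cell and macrophage markers averaged 7.60 to 8.40 in WTAL, 7.29 to 7.94 in WTCR and 7.45 to 7.89 in Dgat1-/-AL, with 2 of 6 called lower in each of the latter groups. Of 5 sinusoidal endothelial markers 1 was called lower in WTCR, and 1 higher and 2 lower in Dgat1-/-AL. Of 4 T cell markers 1 was called lower in WTCR, and none of the 4 cholangiocyte markers was called in either group. The part of these cell types in the clock gene results was not tested, and in whole liver fewer cells of a type and less RNA per cell cannot be told apart.

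Livers of calorie restricted mice had more mRNA of all 3 *Per* genes, both *Cry* genes and *Nr1d2* than livers of WTAL mice. A gene was called when its fold was over 1.3 with an unadjusted limma p under 0.05, the rule used in the study. By this rule 6 of the 9 clock genes were called higher in WTCR and 0 lower, where 8.06% of all 28815 probe sets were called, 4.25% higher and 3.81% lower. After Benjamini-Hochberg adjustment over all probe sets 4 of the 9 (*Per1*, *Per2*, *Per3* and *Cry1*) passed an adjusted p of 0.05, against 3.03% of all probe sets in either direction and 1.62% higher. The median log2 fold change of the 9 genes was 0.66, that of all probe sets 0.0023. In these 6 genes every WTCR array lay above every WTAL array, an arrangement seen in 11.2% of all probe sets.

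**Figure D1:**
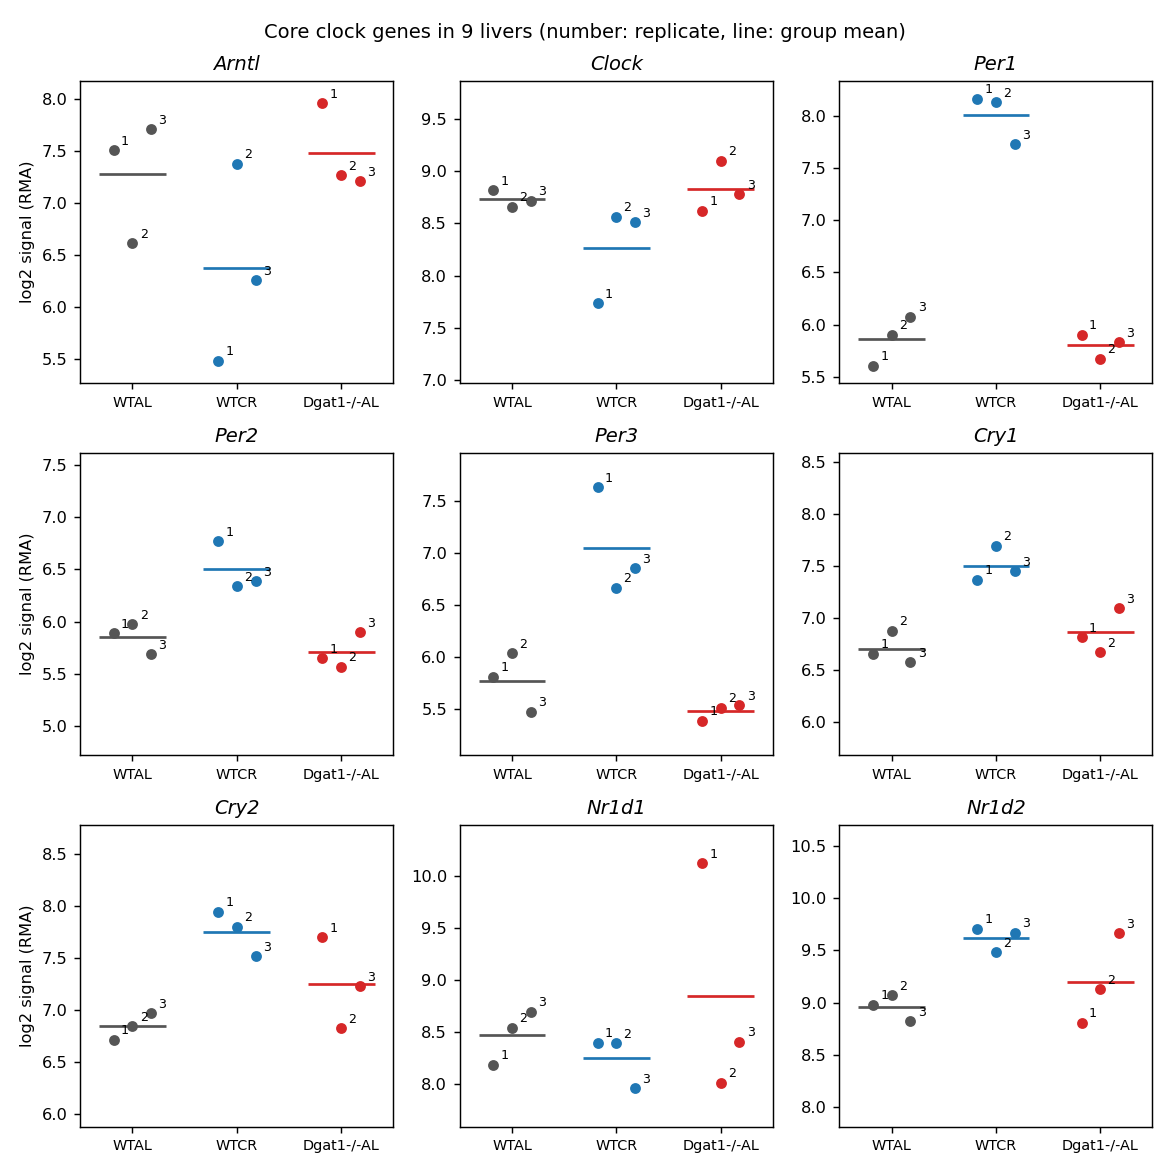
Log2 signal (RMA, vertical axis) of the 9 core clock genes, 1 panel per gene, with 1 point per mouse for WTAL, WTCR and Dgat1-/-AL and a bar at each group mean. The WTCR points of *Per1*, *Per2*, *Per3* and *Cry1* lie above all 6 other arrays and those of *Clock* below them. The WTCR points of *Arntl* are widely scattered, and for *Nr1d1* Dgat1-/-AL replicate 1 lies far above the rest, at 10.12.

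*Per1*, the period gene that also responds directly to hormonal and fasting signals, had the largest difference. Its log2 signal was 5.61, 5.90 and 6.08 in the 3 WTAL arrays (probe set 10377439), 8.17, 8.13 and 7.73 in the 3 WTCR arrays and 5.90, 5.67 and 5.83 in the 3 Dgat1-/-AL arrays. The lowest WTCR array was 1.65 above the highest of the other 6. This is a 4.43-fold higher signal than in WTAL (log2 fold change 2.15 ± 0.15 with its SE, limma adjusted p = 0.0012, 3 arrays in each group), and the 9th largest rise among the 28815 probe sets.

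*Per3*, a period gene whose loss leaves the central clock largely intact, gave log2 signals of 5.81, 6.04 and 5.48 in WTAL (probe set 10518781), 7.63, 6.66 and 6.85 in WTCR and 5.39, 5.51 and 5.54 in Dgat1-/-AL. The WTCR arrays were again above all the others, with replicate 1 well above the other two. The WTCR mean was 2.42-fold that of WTAL (log2 fold change 1.28 ± 0.24, SE, adjusted p = 0.0285 from limma), the 55th largest rise on the array.

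*Per2*, which encodes a scaffold of the repressor complex, changed least of the period genes. Its log2 signals were 5.89, 5.97 and 5.69 in WTAL (probe set 10356601), 6.77, 6.34 and 6.39 in WTCR and 5.65, 5.57 and 5.90 in Dgat1-/-AL. The gap between the lowest WTCR array and the highest of the other 6 was 0.37. The difference from WTAL was 1.57-fold (log2 fold change 0.65 ± 0.14, SE, adjusted p = 0.0455 from limma).

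*Cry1*, the stronger of the cryptochrome repressors, had log2 signals of 6.66, 6.88 and 6.58 in WTAL (probe set 10371400), 7.37, 7.69 and 7.45 in WTCR and 6.82, 6.68 and 7.10 in Dgat1-/-AL. All WTCR arrays were above the other 6, and the 1.74-fold difference from WTAL (log2 fold change 0.80 ± 0.13, SE) had an adjusted limma p of 0.0208. *Cry2*, its paralogue, gave 6.72, 6.85 and 6.97 in WTAL (probe set 10485170), 7.95, 7.80 and 7.52 in WTCR and 7.70, 6.83 and 7.23 in Dgat1-/-AL. WTCR was higher than WTAL by 0.91 ± 0.20 (SE), a 1.88-fold difference at an adjusted limma p of 0.0543, but Dgat1-/-AL replicate 1 reached into the WTCR range.

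The REV-ERB genes differed from each other. *Nr1d2* gave log2 signals of 8.98, 9.07 and 8.82 in WTAL (probe set 10417734), 9.71, 9.49 and 9.67 in WTCR and 8.81, 9.13 and 9.66 in Dgat1-/-AL. It was called 1.58-fold higher in WTCR than in WTAL (log2 fold change 0.66 ± 0.19, SE, unadjusted p = 0.0072 and adjusted p = 0.119 from limma), and 1 Dgat1-/-AL array, replicate 3, lay within the WTCR range. *Nr1d1* gave 8.19, 8.54 and 8.70 in WTAL (probe set 10390691), 8.40, 8.39 and 7.97 in WTCR and 10.12, 8.01 and 8.41 in Dgat1-/-AL. WTCR and WTAL overlapped, with a log2 difference of -0.22 ± 0.46 (SE, limma adjusted p = 0.90) and a 95% interval of -1.28 to 0.83. Without the 2 arrays that stand apart the difference was -0.19 ± 0.21.

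The means of both activators were lower in WTCR than in WTAL, and neither gene was called. *Arntl* log2 signal was 7.51, 6.61 and 7.71 in WTAL (probe set 10556463), 5.49, 7.38 and 6.26 in WTCR and 7.96, 7.27 and 7.21 in Dgat1-/-AL. The WTCR mean was below that of WTAL by a log2 difference of -0.90 ± 0.47 (SE), with overlapping arrays, a 95% interval of -1.97 to 0.17 and an unadjusted limma p of 0.0888, so it was not called. *Clock* gave 8.82, 8.66 and 8.72 in WTAL (probe set 10530733), 7.73, 8.57 and 8.51 in WTCR and 8.62, 9.10 and 8.78 in Dgat1-/-AL. All 3 WTCR arrays were below all 3 WTAL arrays, as in 8.44% of all probe sets, by a gap of 0.095. The log2 difference of -0.46 ± 0.21 (SE, 95% interval -0.95 to 0.03) was not called, at an unadjusted limma p of 0.0609.

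**Figure D2:**
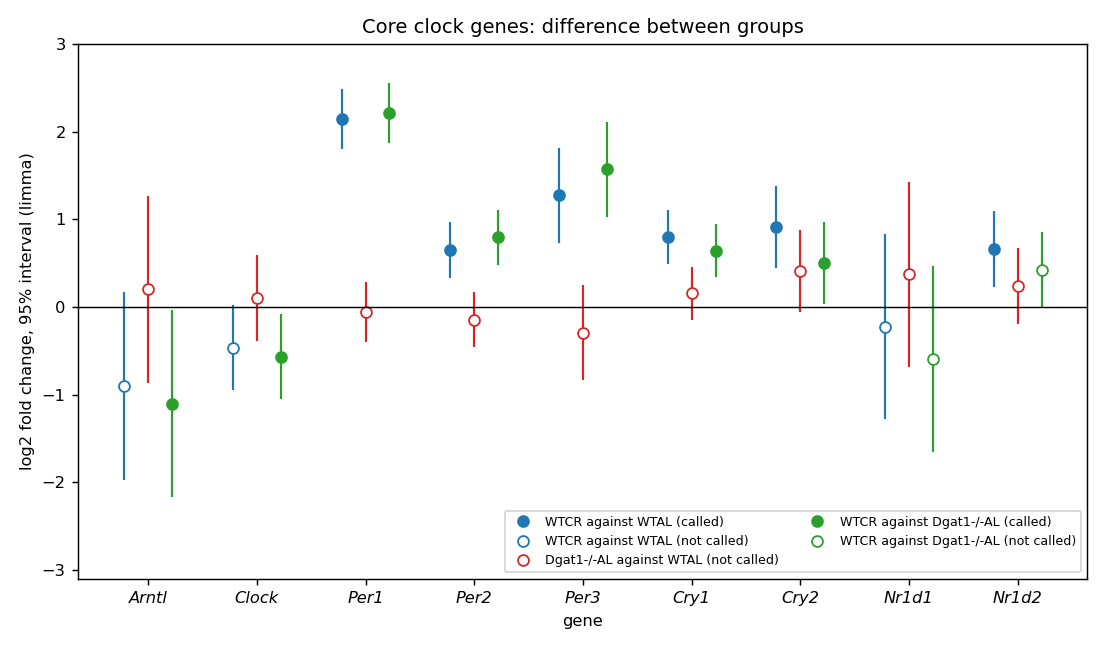
Log2 fold change (vertical axis, limma) of the 9 clock genes (horizontal axis) in WTCR against WTAL, Dgat1-/-AL against WTAL and WTCR against Dgat1-/-AL. Bars are 95% intervals and filled points are called genes. In the first comparison the 6 filled points run from 0.65 (*Per2*) to 2.15 (*Per1*), and in the second no point is filled.

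The 6 calls held in each of the 9 fits that left out 1 array. *Per1* ran from 2.02 to 2.29 in these fits, *Per3* from 0.98 to 1.47, *Cry2* from 0.81 to 1.03, *Cry1* from 0.70 to 0.89, *Nr1d2* from 0.60 to 0.73 and *Per2* from 0.51 to 0.73. The count of clock genes that also passed the adjusted p was less stable. It was 1, *Per1*, without WTAL replicate 1, WTAL replicate 3 or WTCR replicate 3, 2 without the array labelled WTAL replicate 2 or without WTCR replicate 2, and 6 without Dgat1-/-AL replicate 1. With both arrays that stand apart left out it was 2 (*Per1* and *Cry1*). *Arntl* became called, at -1.23 and -1.40, without the array labelled WTAL replicate 2 or WTCR replicate 2, the arrays of their groups nearest to the other group. *Clock* became called, at -0.61 and -0.58, without WTCR replicate 2 or WTCR replicate 3. Without the 2 arrays that stand apart, the 6 calls were kept, at 2.17 for *Per1*, 1.41 for *Per3*, 0.91 for *Cry2*, 0.89 for *Cry1*, 0.72 for *Nr1d2* and 0.71 for *Per2*, and *Arntl* was called lower, at -1.23 (unadjusted p = 0.0418).

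In livers of *Dgat1* null mice fed ad libitum none of the 9 clock genes was called against WTAL, where 1.23% of all probe sets were called, 0.465% higher and 0.76% lower. At an unadjusted limma p under 0.05 the count was also 0, against 4.57% of all probe sets, and the groups overlapped in all 9 genes. Among all probe sets 3.16% had every Dgat1-/-AL array above every WTAL array and 3.86% every one below. The period genes gave small differences, -0.06 ± 0.15 for *Per1*, -0.14 ± 0.14 for *Per2* and -0.29 ± 0.24 for *Per3* (log2, SE). The 95% interval for *Per1*, -0.40 to 0.28, lay wholly below its WTCR value. *Cry1* differed by 0.16 ± 0.13 and *Cry2* by 0.41 ± 0.20, the latter with a 95% interval of -0.06 to 0.87. *Arntl* (0.20 ± 0.47), *Clock* (0.10 ± 0.21), *Nr1d1* (0.37 ± 0.46) and *Nr1d2* (0.24 ± 0.19) had intervals on both sides of 0, and adjusted limma p-values were 0.97 to 0.98 for all 9 genes. The interval for *Nr1d1*, -0.69 to 1.43, leaves room for a change in either direction. A call appeared for *Cry2* (0.62) without Dgat1-/-AL replicate 2 and for *Nr1d2* (0.44) without Dgat1-/-AL replicate 1. Without that array the *Nr1d1* difference turned to -0.27 and that of *Arntl* to -0.04.

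Because both comparisons used the same WTAL arrays, WTCR and Dgat1-/-AL were also compared directly. Here 5 clock genes were called higher in WTCR and 2 lower, where 8.59% of all probe sets were called, 4.66% higher and 3.93% lower. *Per1* was higher by 2.21 ± 0.15 (log2, SE, adjusted p = 0.0014), *Per3* by 1.57 ± 0.24 (0.0149), *Per2* by 0.79 ± 0.14 (0.0233) and *Cry1* by 0.64 ± 0.13 (0.0420), the 4 past the adjusted p, against 3.06% of all probe sets in either direction and 1.77% higher. In each of these 4 genes all WTCR arrays were above all Dgat1-/-AL arrays, as in 9.05% of all probe sets. *Cry2* was called higher by 0.50 ± 0.20 with overlapping arrays (unadjusted p = 0.0376). *Clock* was called lower, by -0.57 ± 0.21, with every WTCR array below every Dgat1-/-AL array, as in 7.1% of all probe sets (unadjusted p = 0.0279), and *Arntl* by -1.10 ± 0.47 (unadjusted p = 0.0446). *Nr1d2* differed by 0.42 ± 0.19 (95% interval -0.011 to 0.85) and *Nr1d1* by -0.60 ± 0.46, neither called. Setting all 9 arrays side by side, the 3 WTCR arrays were above the other 6 in *Per1*, *Per2*, *Per3* and *Cry1*, as in 6.11% of all probe sets, and below them in *Clock*, as in 4.56%.

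Arrays of WTCR and Dgat1-/-AL with the same replicate number deviated together from their group means (r = 0.48, 0.25 and 0.21). Same-numbered pairs with WTAL did not. Replicate 2 of WTCR with replicate 3 of Dgat1-/-AL, and 3 with 2, were nearly as alike (0.18 each). The pairs of replicate 1 with another number ran from -0.37 to -0.27. Whether the number marks a batch was not tested. The direct comparison was also fitted on these 2 groups with the replicate number as a block. *Arntl* was then no longer called (unadjusted p = 0.0835), 6 clock genes kept a call, and *Per1* alone passed the adjusted p (0.0298), with *Per3* at 0.069, *Per2* at 0.085 and *Cry1* at 0.120. *Arntl* also lost its call in 7 of the 9 fits without 1 array, *Cry2* in 6 and *Clock* in 3 (without WTCR replicate 1, Dgat1-/-AL replicate 2 or Dgat1-/-AL replicate 3). The calls of *Per1*, *Per2*, *Per3* and *Cry1* by the rule held in all 9. Past the adjusted p the count of clock genes was 1 without WTCR replicate 3 or Dgat1-/-AL replicate 2. That count was 4 without Dgat1-/-AL replicate 1, 1 in the 2-group fit without the block and 0 by the methods' t-test. Without Dgat1-/-AL replicate 1 the 4 included *Cry2* (limma adjusted p = 0.0485) and not *Cry1* (0.0675). Among the fits without 1 array, *Cry1* passed the adjusted p only without Dgat1-/-AL replicate 3 (0.0484). *Nr1d2* gained a call, at 0.65, without Dgat1-/-AL replicate 3.

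The clock genes varied more between the arrays of a group than most probe sets did. The pooled SD within groups was 0.69 for *Arntl* and 0.68 for *Nr1d1* on the log2 scale, both at percentile 99.7 of all probe sets, whose median was 0.128. For *Nr1d1* this rests on Dgat1-/-AL replicate 1, as its SD was 0.26 in WTAL, 0.25 in WTCR and 1.12 in Dgat1-/-AL, and the pooled SD without that array was 0.26 (percentile 93.8). Without it the pooled SD of *Arntl* was 0.71. *Per3* (0.34), *Clock* (0.31), *Cry2* (0.29) and *Nr1d2* (0.27) lay between percentiles 90.2 and 95.2, and *Per1* (0.21), *Per2* (0.19) and *Cry1* (0.18) between percentiles 73.4 and 80.7. The most aberrant arrays over the 9 genes were Dgat1-/-AL replicate 1, with a root mean square deviation from its group means of 0.50, WTCR replicate 1 (0.42) and WTCR replicate 2 (0.39), against 0.16 to 0.35 on the other 6. Over all probe sets Dgat1-/-AL replicate 1 also deviated most, at 0.22 against 0.12 to 0.16 on the other arrays.

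The extreme values were spread over the arrays as follows. WTCR replicate 1 held the highest signal of all 9 arrays for *Per1*, *Per2*, *Per3*, *Cry2* and *Nr1d2* and the lowest for *Arntl* and *Clock*. WTCR replicate 2, by contrast, had the highest *Arntl* (7.38) and the lowest *Per3* (6.66) of the group, but like replicate 1 it lay above the group mean for *Per1* and *Cry2*. WTCR replicate 3 was the lowest of its group for *Per1* (7.73), *Cry2* (7.52) and *Nr1d1* (7.97). Among the null mice, replicate 1 had the highest *Arntl* (7.96) and *Nr1d1* (10.12) of all arrays and the lowest *Per3* (5.39) and *Nr1d2* (8.81). The array labelled WTAL replicate 2 was the WTAL array nearest to the WTCR mean in 6 of the 9 genes (*Arntl*, *Clock*, *Per2*, *Per3*, *Cry1* and *Nr1d2*). With 3 mice per group these orders are descriptions without a test.

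**Figure D3:**
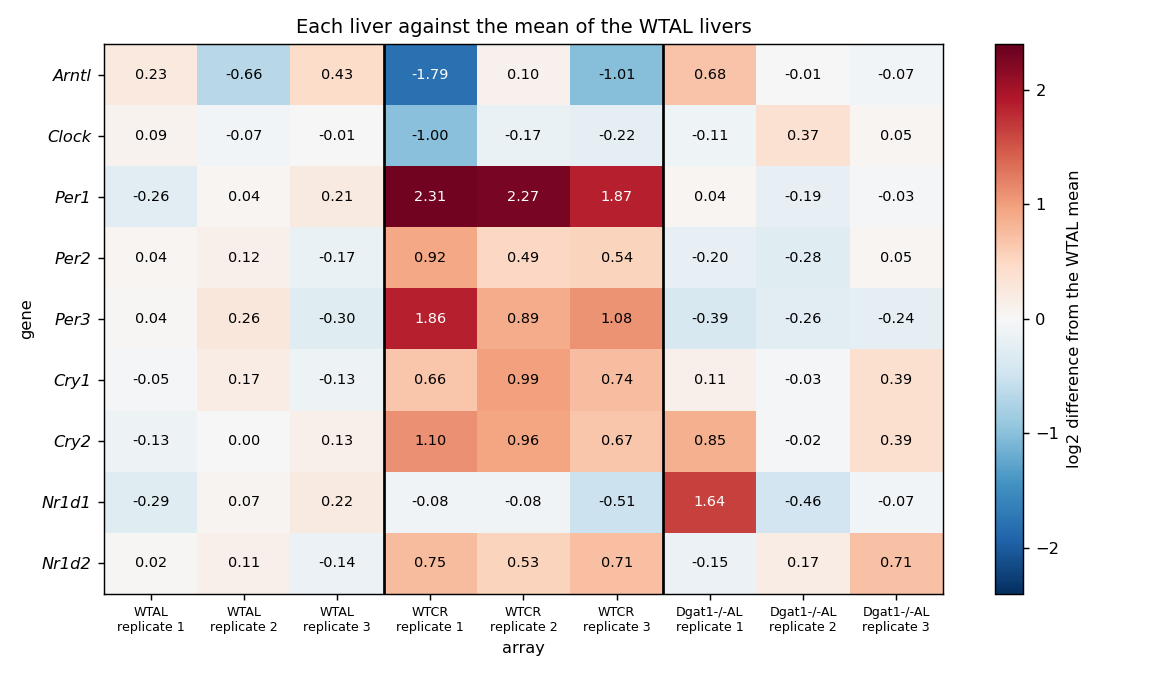
Difference of each array's log2 signal from the WTAL mean of the same gene (colour), with the 9 clock genes in rows and the 9 arrays in columns. WTCR columns are raised for the *Per* and *Cry* genes and lowered for *Clock*, with WTCR replicate 1 at an extreme of all arrays in 7 of the genes, and *Nr1d1* stands out in Dgat1-/-AL replicate 1.

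Genes around the core loop were examined as a list of 19 regulators, output factors and enzymes that modify clock proteins, of which 17 were analysed here. The list was also chosen with earlier results of these data known. In WTCR against WTAL, 5 were called higher (*Ciart*, *Csnk1d*, *Dbp*, *Tef* and *Hlf*) and 1 lower (*Nfil3*), against the 4.25% and 3.81% of all probe sets. The median log2 fold change of the list was 0.23. *Ciart*, a repressor that binds BMAL1, rose on both of its probe sets, by 3.37 ± 0.33 and 2.52 ± 0.19 (log2, SE, adjusted p = 0.0048 and 0.0013). *Tef* and *Hlf*, which with *Dbp* form the PAR bZIP family that activates D-box promoters, were higher by 1.27 ± 0.15 and 0.71 ± 0.13 (adjusted p = 0.0093 and 0.0247). *Tef* log2 signal was 7.54, 7.72 and 7.54 in WTAL, 9.20, 8.73 and 8.68 in WTCR and 7.55, 7.29 and 7.70 in Dgat1-/-AL, with no overlap between WTCR and the other groups. *Dbp* and *Nfil3*, which encodes a repressor at the same D-box elements, moved in opposite directions, by 2.24 ± 0.33 and -2.0 ± 0.30 (adjusted p = 0.0152 and 0.0154). The D-box forms are among the letters in capitals in the *Per1* and *Per3* windows printed above, and their part in the clock gene results was not tested. *Csnk1d*, a kinase that phosphorylates PER proteins, was called at a fold close to the threshold (0.39 ± 0.12, adjusted p = 0.152).

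The other 11 genes of that list were not called in WTCR. Their log2 differences ran from -0.26 (*Btrc*) to 0.74 ± 0.35 (*Bhlhe40*, a repressor at E-boxes, unadjusted p = 0.0631). In Dgat1-/-AL none of the 17 was called against WTAL, where 1.23% of all probe sets were, and 1, *Fbxw11* (0.19 ± 0.08), a component of the ubiquitin ligase that marks PER proteins, had an unadjusted limma p under 0.05 (0.0469), a share near the 4.57% of all probe sets. The 5 genes called higher and the 1 called lower in the direct comparison of WTCR with Dgat1-/-AL were *Ciart*, *Dbp*, *Tef*, *Hlf*, *Bhlhe40* (1.09) and *Nfil3*, against 4.66% and 3.93% of all probe sets.

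**Figure D4:**
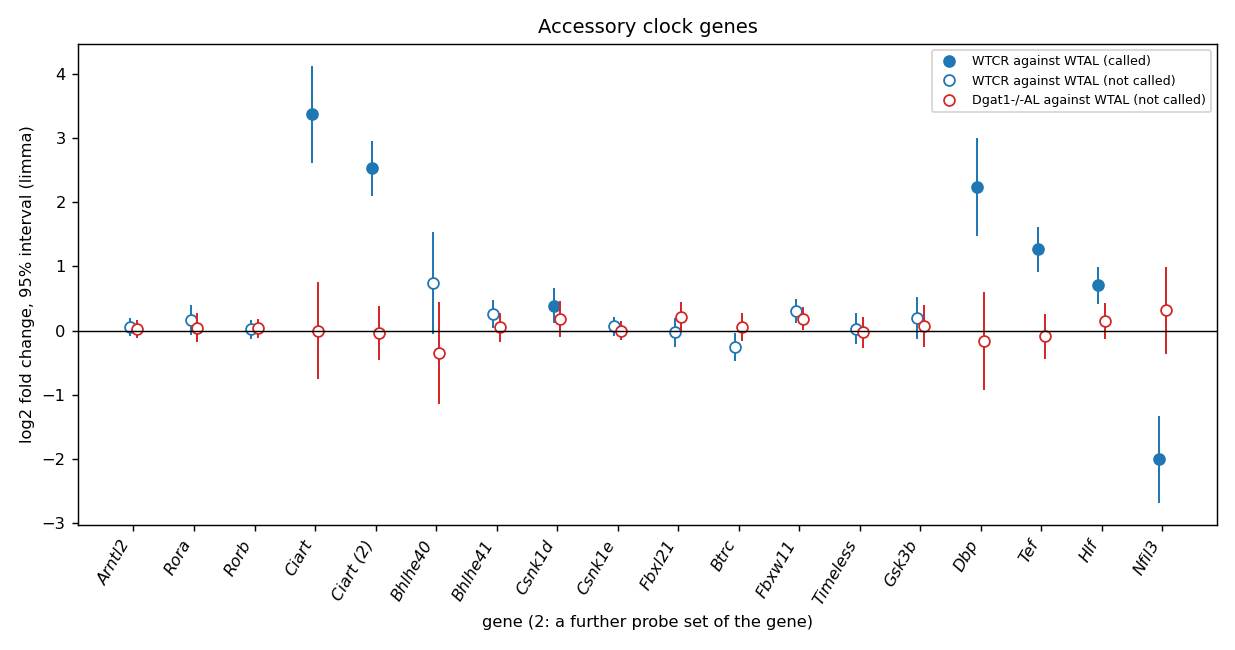
Log2 fold change (vertical axis, limma) of the 17 measured accessory clock genes (horizontal axis) in WTCR against WTAL and in Dgat1-/-AL against WTAL. Bars are 95% intervals and filled points are called genes. *Ciart*, *Dbp* and *Tef* lie highest and *Nfil3* lowest in WTCR against WTAL, from 3.37 to -2.0.

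For the 4 clock genes past the adjusted p, the gene with the most similar profile was sought as the smallest root mean square difference over the 9 arrays after each gene was centred on its own mean. *Per1* was closest to *Lpin1*, a phosphatidate phosphatase of triglyceride synthesis, with a root mean square difference of 0.19 against the 1.04 by which *Per1* itself varied. *Per3* was closest to *Map2k6* (0.20 against 0.74), a kinase that activates p38, *Per2* to *Cyp2j9* (0.10 against 0.38), a cytochrome P450, and *Cry1* to *Tango2* (0.08 against 0.38). The likeness rests on the arrays in which these genes were called and is a description without a test.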

How the data were processed

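Liver total RNA of 9 mice was hybridised to Affymetrix Mouse Gene 1.0 ST arrays. The authors made the deposited log2 values with RMA, which corrects background, quantile-normalizes the arrays and summarizes probes, and compresses differences between dim probe sets. RMA's version is not given in the sources used here. No raw intensities were used, and columns were matched to samples by their labels. Probe sets were named from the platform annotation, of which 21780 of 28815 carried 1 symbol, 1605 several and 5430 none. The array number per group (3) limits the precision.

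For each probe set, limma 3.58.1 (R 4.3.3) fitted 1 mean per group over all 9 arrays with lmFit and eBayes, without a filter or covariate, and p was adjusted by the Benjamini-Hochberg method over all 28815 probe sets. Calls needed both a fold above 1.3 and a p, before adjustment, below 0.05. The fits were tested on simulated data. No 2 arrays were identical.

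Clock genes and lists were chosen with earlier results of these data known. All members were named, with accessory genes past the adjusted p in WTCR against WTAL or called in Dgat1-/-AL, and the nearest profile of each member past the adjusted p. *Csnk1d*, *Bhlhe40*, *Btrc* and *Fbxw11* were named after their values were seen. Motifs were searched on both strands of RefSeq promoter windows. Same-numbered arrays of WTCR and Dgat1-/-AL had deviations from their group means that correlated at 0.48, 0.25 and 0.21, all over 0.1. Same-numbered pairs involving WTAL ran from -0.33 to 0.05. Pairs with unlike numbers reached 0.18 between WTCR and Dgat1-/-AL and 0.31 with WTAL. The labels do not say what the numbers share. Alternatives were each array left out in turn, a replicate block, fits on 2 groups, a dim filter at percentile 25, arrays centred or quantile-normalized again, eBayes with trend and robust, gene means, an adjusted p and the methods' t-test, and, chosen after seeing the data, a 2-group fit with the block and the omission of the 2 arrays that stand apart.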

Additional observations from a re-analysis of the deposited data

How the results depend on the processing

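The 6 clock genes called higher in WTCR than in WTAL kept direction and call under every alternative run that keeps the rule, and 4 of them passed the adjusted p in its place. The 9 fits without 1 array gave 6 to 8 called clock genes and 5 to 7 called accessory genes in that comparison, and the omission of both arrays that stand apart gave 7 clock genes. With the replicate block over all 9 arrays *Clock* was called lower against WTAL (unadjusted p = 0.0464), and no other clock gene changed its call by the rule against WTAL under the block. The adjusted p was less stable there, as 1 clock gene passed it with the block (*Per1* 0.0107, with *Cry1* at 0.057, *Per3* at 0.064 and *Per2* at 0.094), 0 by the methods' t-test (adjusted p = 0.137 for *Per1*) and 5 with the dim filter or with quantile normalization again. In the 2-group fit the count stayed at 4. There *Per2* (0.075) and *Per3* (0.078) no longer passed it, while *Cry2* (0.031) and *Nr1d2* (0.031) did. In WTCR against Dgat1-/-AL the count of 7 clock genes fell to 4 at the adjusted p, 4 in the 2-group fit and 4 by the methods' t-test, and to between 4 and 6 without 1 array, while the count of accessory genes was 6 in each of those 9 fits, with 5 higher and 1 lower in 8 of them and 4 higher and 2 lower without WTCR replicate 1. *Arntl*, *Clock* and *Cry2* lost their calls in the 2-group fit (unadjusted p = 0.0660, 0.0661 and 0.0770) and by the methods' t-test, and *Arntl* with the replicate block over all 9 arrays (unadjusted p = 0.0785).

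For Dgat1-/-AL against WTAL the count of called clock genes was 0 to 1 without 1 array, that of accessory genes 0 to 1, and 1 clock gene (*Nr1d2*, 0.50) was called without the 2 arrays that stand apart. Several of its small differences turned sign. Without 1 array *Arntl* ran from -0.13 to 0.42, *Clock* from -0.029 to 0.21, *Per1* from -0.19 to 0.047 and *Nr1d1* from -0.27 to 0.79. Without both arrays *Arntl* was -0.37 and *Nr1d1* -0.23. *Nr1d1* in WTCR against Dgat1-/-AL ran from -1.01 to 0.041, the latter without Dgat1-/-AL replicate 1, and was also 0.041 without both arrays. The cause was not tested. Over all probe sets the count past the adjusted p ran from 118 to 1299 for WTCR against WTAL without 1 array (872 with all). For WTCR against Dgat1-/-AL it ran from 199 to 1222 (883), so the adjusted p of a clock gene depends on single arrays.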
